A study of Mus musculus with 2 samples.

Results

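The pericentral zonation genes are 10 genes whose transcripts are known from hepatocytes near the central vein: Glul, Cyp2e1, Cyp1a2, Oat, Slc1a2, Gulo, Lgr5, Axin2, Tbx3 and Rhbg. They were chosen by gene symbol, with no measured value in the choice, and all 10 were found among the 32285 genes of the count tables. The data were single-cell counts from 2 liver libraries, 1 per group. Control mice gave the WT library. The N-LKO library came from liver together with tumor tissue of mice in which albumin-Cre, active in hepatocytes, deletes loxP-flanked Nus1. Nus1 encodes NgBR, a subunit of the cis-prenyltransferase that makes the lipid carrier dolichol. Both groups were on the C57BL6 background and received chow for 8 weeks and then the test diet for 16 weeks. The titles call the diet HFD and the treatment labels call it WD, in both libraries alike. Hepatocytes and nonparenchymal cells were mixed in equal parts, and a smaller portion of tumor cells was added for N-LKO. The mice of the study were male by its methods, and the number of animals behind each library is not given in the sources used here. Genotype, tumor tissue and library cannot be told apart in any comparison, and since each group was 1 library, no test was run and no p-value is given.

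Blood flows through the liver lobule from the portal vein to the central vein, and hepatocytes divide their work along this path. Wnt ligands and R-spondins from endothelial cells of the central vein activate beta-catenin in the neighboring hepatocytes, which then make glutamine from the ammonia that the upstream cells did not turn into urea. Glul, the glutamine synthetase gene, marks the innermost layer of these cells. Cytochrome P450 genes such as Cyp2e1 and Cyp1a2 cover a broader pericentral zone.

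On GRCm38 (GENCODE vM21) the 10 genes lie on 9 chromosomes, and Oat and Cyp2e1 share chromosome 7. Glul spans chr1:153899944-153909723 on the forward strand, and Oat spans chr7:132557478-132576398 on the reverse strand. The gene spans run from 6.77 kb for Cyp1a2 to 132 kb for Slc1a2 and 137 kb for Lgr5. RefSeq promoters on GRCm38.p6, from 250 bases before to 50 bases after the start, were at hand for 6 of the 10 genes. Of these 6, Cyp2e1, Cyp1a2 and Slc1a2 held a core word of the TCF/LEF factors through which beta-catenin acts (the letters CTTTGAA, the letters CTTTGAT, the letters CTTTGTA or the letters CTTTGTT, on either strand), and Glul, Oat and Axin2 did not. Such a word stood in 16.9% of all 32851 promoters in the table. The core of the xenobiotic response element (TNGCGTG on either strand), the letters bound by the Ahr receptor complex that induces Cyp1a2, stood in none of the 6 and in 5.07% of all promoters. The stretches around the words are shown because they carry the only such letters in the promoters of these genes; capitals mark the word, and each sequence is on the strand of its gene. They lie at chr7:140763634-140763740 for Cyp2e1, chr9:57683843-57683905 for Cyp1a2 and chr2:102706188-102706287 for Slc1a2, where the GENCODE span of the gene begins further upstream.
Cyp2e1: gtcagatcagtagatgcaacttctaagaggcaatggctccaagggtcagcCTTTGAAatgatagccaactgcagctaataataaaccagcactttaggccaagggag
Cyp1a2: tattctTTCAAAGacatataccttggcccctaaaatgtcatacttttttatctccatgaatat
Slc1a2: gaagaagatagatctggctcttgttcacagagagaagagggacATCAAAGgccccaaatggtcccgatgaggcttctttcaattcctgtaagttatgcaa
The words began 135, 244 and 207 bases before the start of Cyp2e1, Cyp1a2 and Slc1a2. A match of letters is a description and not a binding site.

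The libraries held 85522287 unique molecular identifiers (UMIs) for WT and 87575064 for N-LKO. After filtering, 18434 WT cells and 19851 N-LKO cells remained, of which 9959 and 4141 were called hepatocyte-like from marker genes. The hepatocyte-like cells of the libraries fell mostly into different clusters. WT cells were in cluster 0 (8364 cells) and cluster 9 (1165 cells, with little of the nuclear transcript Malat1), and N-LKO cells were in cluster 5 (1978 cells) and cluster 6 (2068 cells, rich in Malat1, with no WT cell). A cluster of 1 library may be that library rather than a kind of cell. Levels are given in CPM, the UMIs of a gene per 1000000 UMIs of its class or cluster. Alb, albumin, stood at 4227 CPM in cluster 6 against 16354.5 CPM in the N-LKO cells of cluster 5, and cluster 6 carries its name from 5 raised markers at a score of 0.204, under thresholds set after seeing the data. Alb stood at 3728 CPM in the N-LKO T-like and 3942 CPM in the N-LKO endothelial-like cells with under 3 Slc1a2 UMIs. The 2068 cells of cluster 6, among the 4141 of N-LKO, thus held albumin close to the level of cells that do not make it. Other hepatocyte genes went both ways. Cps1, a urea cycle gene, stood at 2476 CPM in cluster 6 and 1769 CPM in the N-LKO cells of cluster 5. It stood at 675 and 923 CPM in those same T-like and endothelial-like cells. The hepatocyte gene Hnf4a stood at 252 and 176 CPM in N-LKO clusters 6 and 5, and Ahsg at 1045 and 2193 CPM. In WT, Alb was also lower in the Malat1-rich cluster 17 than in cluster 0, at 7475 and 23739 CPM. The summed hepatocyte markers stood at 45439 CPM for WT hepatocyte-like cells and 31841 CPM for those of N-LKO. Nus1, the targeted gene, was at 73.0 CPM (interval 69.0 to 77.3) for WT against 34.1 CPM (30.3 to 38.3) for N-LKO hepatocyte-like cells. In endothelial-like cells it was at 89.8 CPM for WT against 92.3 CPM for N-LKO. The libraries shared 2499 barcodes, and 483 WT and 563 N-LKO cells carried 1 of them. All intervals are 95% and cover counting error only.

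Free RNA, the transcripts loose in the suspension that enter every droplet, bears on each value below. Its profile was taken from the barcodes with under 500 UMIs, and its share in a class from markers foreign to that class. The share came to 80.4% for WT and 39.5% for N-LKO in hepatocyte-like cells. The smallest of these barcodes had 326 (WT) and 377 (N-LKO) UMIs, and they were not shown to be empty. The share is thus uncertain, and the direction of its error was not tested. The level that this free RNA would give is stated for the 10 genes in hepatocyte-like cells, and was not computed gene by gene for the lists of other genes. Where free RNA was subtracted, the UMIs left were scaled anew to their own total in each library. This shifts the ratios of all genes together, most where the shares of free RNA differ. The median of all genes on that scale is not given here, so such a ratio does not show a move particular to its gene.

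In hepatocyte-like cells, 5 of the 10 genes were lower in N-LKO with an interval below 0 on the log2 scale, against 18.1% of the 10648 genes with at least 5 CPM in 1 library. These were Oat, Glul, Cyp1a2, Cyp2e1 and Slc1a2, of which Slc1a2 turned to higher at a minimum of 2000 UMIs (0.19) and at a mitochondrial limit of 10% (0.33). Oat and Glul were lower by over 2-fold with an interval below 0, as were 2.39% of all genes. Lgr5 alone was higher with an interval above 0, against 55.5% of all genes, and none of the 10 was higher by over 2-fold, against 22% of all genes. Gulo, Axin2, Tbx3 and Rhbg had intervals that included 0. The median log2 ratio of N-LKO over WT was -0.61 over the 8 of these genes with at least 5 CPM and 0.39 over all 10648 genes. The typical gene was thus itself higher in N-LKO on this scale. Over all 10, with Axin2 and Rhbg below 5 CPM in both libraries, the median was -0.26.

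**Figure D1:**
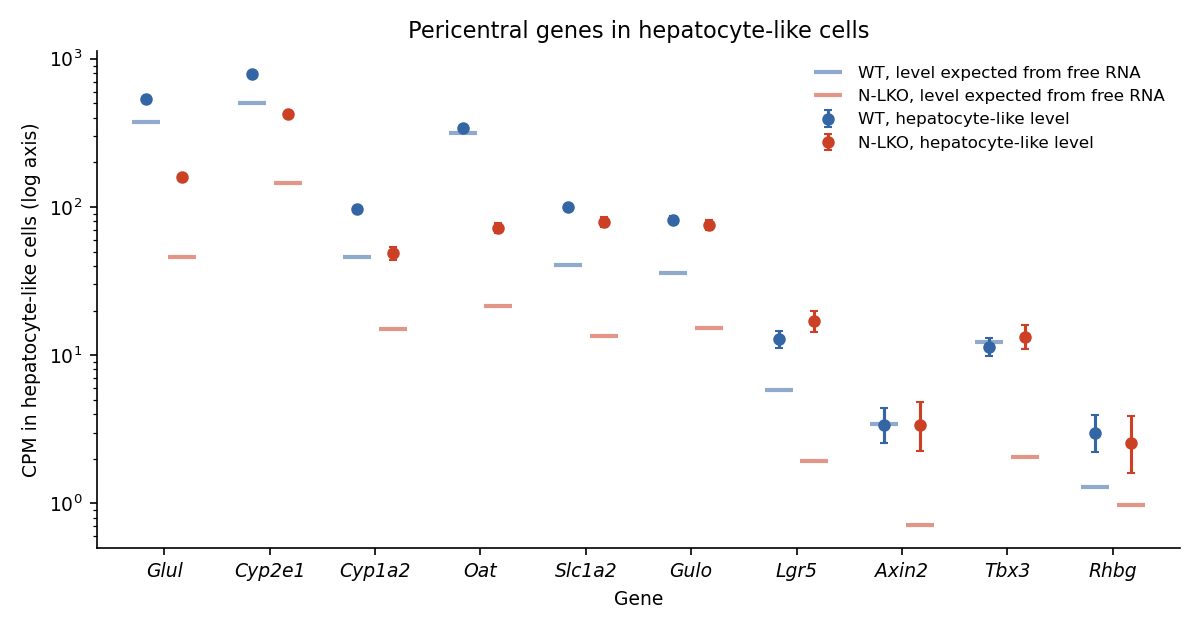
CPM (log axis) of each gene in the hepatocyte-like cells of WT (blue) and N-LKO (red), 1 library each; bars are 95% Poisson intervals and short horizontal lines the level expected from free RNA. Glul went from 533 CPM (WT) to 159 CPM (N-LKO) and Oat from 340.4 to 71.9, while Gulo was at 82.0 and 76.1 CPM.

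The genes of ammonia and glutamate handling held the largest differences. Glul, which joins ammonia to glutamate, stood at 533 CPM (522 to 544) for WT against 159 CPM (150.4 to 167) for N-LKO hepatocyte-like cells. This was 3.36-fold lower, or -1.75 on the log2 scale (-1.83 to -1.67). The level expected from free RNA was 375 CPM for WT against 45.9 CPM for N-LKO, below the measured level in both. Oat, ornithine aminotransferase, which turns ornithine toward glutamate, stood at 340.4 CPM (332 to 349) for WT against 71.9 CPM (66.3 to 77.8) for N-LKO, 4.73-fold lower. In WT, free RNA alone would give 315 CPM of Oat, so little of the WT level rose above it. With free RNA subtracted, the log2 ratio of Oat went from -2.24 to -0.16.

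Slc1a2, the glutamate transporter GLT-1, stood at 99.5 CPM (94.8 to 104) for WT against 79.0 CPM (73.1 to 85.1) for N-LKO, with a log2 ratio at -0.33. Free RNA would give 40.3 and 13.4 CPM, and with it subtracted the ratio was -1.01. The difference was unlike in subsets of the cells. Without the Malat1-rich and Malat1-poor clusters, Slc1a2 stood at 100.3 CPM for WT against 24.6 CPM for N-LKO, with a log2 ratio at -2.02 (-2.32 to -1.75). In the Malat1-rich clusters it stood at 213 CPM for WT against 141 CPM for N-LKO, with a log2 ratio at -0.60 (-0.87 to -0.33). Both parts were lower in N-LKO, and N-LKO had more of its hepatocyte-like cells in the part where the level was high. Rhbg, an ammonium transporter, was counted in 50 UMIs (2.97 CPM) in WT and 22 UMIs (2.56 CPM) in N-LKO, and no difference was detectable at this depth. Free RNA would give 1.28 and 0.97 CPM of Rhbg. With it subtracted and the rest scaled anew, which shifts all genes, the ratio went from -0.20 to -1.22.

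The cytochrome P450 genes were about 2-fold lower. Cyp2e1, which oxidizes ethanol and many small molecules, was the most abundant of the 10 genes in counts, with 783 CPM (770.0 to 797) for WT against 421 CPM (408 to 435) for N-LKO, with a log2 ratio at -0.89 (-0.95 to -0.84). Cyp1a2, an Ahr target that oxidizes aromatic amines and caffeine, stood at 96.2 CPM (91.6 to 101.0) for WT against 48.6 CPM (44.0 to 53.5) for N-LKO, with a log2 ratio at -0.98. Free RNA would give 504 and 145 CPM of Cyp2e1 and 45.7 and 14.9 CPM of Cyp1a2 in WT and N-LKO. Both genes were thus above free RNA in both libraries.

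Gulo, the last enzyme of vitamin C synthesis in mice, had an interval that included 0. It stood at 82.0 CPM (77.7 to 86.4) for WT against 76.1 CPM (70.3 to 82.1) for N-LKO, with a log2 ratio at -0.11 (the upper bound was 0.027). The level expected from free RNA was 35.9 CPM for WT against 15.1 CPM for N-LKO. The ratio was -0.75 with free RNA subtracted and 0.32 with cells called 1 by 1 from markers, so its direction rested on these choices.

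The Wnt target genes were sparse. Lgr5, the R-spondin receptor, was counted in 215 UMIs in WT (12.8 CPM, 11.1 to 14.6) and 146 UMIs in N-LKO (17.01 CPM, 14.4 to 20), a log2 ratio of 0.41. Free RNA would give 5.81 and 1.94 CPM, and with it subtracted the ratio was -0.045. The direction also turned within the subsets: the ratio was -0.95 (-1.60 to -0.39) without the Malat1-rich and Malat1-poor clusters and -0.64 (-1.21 to 0.012) within the Malat1-rich clusters. Tbx3, a transcription factor downstream of beta-catenin, stood at 11.4 CPM for WT against 13.3 CPM for N-LKO, with free RNA expected to give 12.3 and 2.07 CPM. The WT level of Tbx3 was therefore not above free RNA. Axin2, a feedback inhibitor of Wnt signaling, was counted in 57 UMIs for WT (3.39 CPM) and 29 for N-LKO (3.38 CPM), and its WT level also lay within free RNA, which would give 3.45 and 0.71 CPM.

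**Figure D2:**
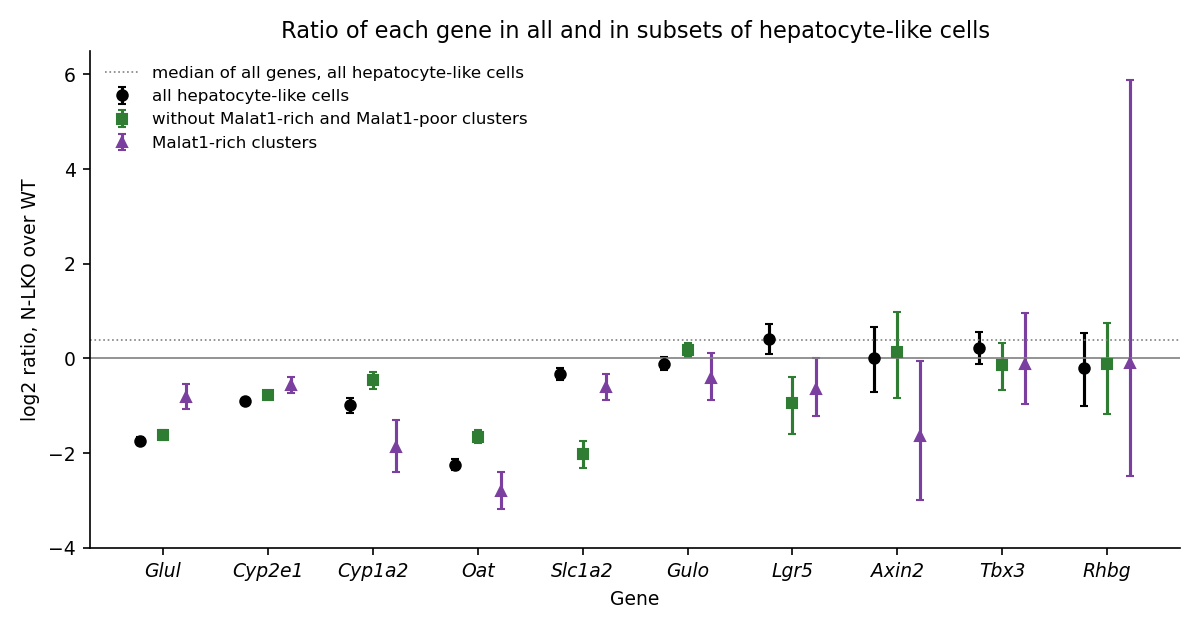
Log2 ratio of N-LKO over WT for each gene in all hepatocyte-like cells (black circles), without the Malat1-rich and Malat1-poor clusters (green squares) and within the Malat1-rich clusters (purple triangles), with 95% counting intervals; the dotted line is the median of all genes at 0.39. Glul, Oat, Cyp2e1 and Cyp1a2 lay below 0 in all 3 views, Slc1a2 was lowest in the second view (-2.02), and Lgr5 was above 0 only over all cells.

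Malat1 moved with these ratios, at 9132 CPM for WT against 11674 CPM for N-LKO hepatocyte-like cells, and its part in them was not tested. The subset without Malat1-rich and Malat1-poor clusters compared 8470 WT with 2052 N-LKO cells, and the median of all genes there was 0.069. Glul was at -1.62, Oat at -1.65, Cyp2e1 at -0.78 and Cyp1a2 at -0.46 on the log2 scale in that subset, each with an interval below 0. Gulo was at 0.18 (0.022 to 0.34) in it. The Malat1-rich subset compared 324 WT with 2072 N-LKO cells. Oat had its lowest ratio there, -2.80 (-3.19 to -2.41), and Cyp1a2 stood at -1.86 (-2.41 to -1.29). Glul was at -0.81 (-1.07 to -0.53).

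Gene length moved with the ratios as well. In 5 bins of gene span over the genes with a span, the median log2 ratio in hepatocyte-like cells rose from -0.077 for the shortest to 0.94 for the longest genes. Slc1a2 and Lgr5, both in the longest bin, were 1.28 and 0.53 below the median of their bin. Glul, Oat and Cyp2e1 were 1.88, 2.38 and 1.03 below theirs. Tbx3 was 0.095 above its bin, the only 1 of the 10 above it.

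Shares of cells with a transcript were compared at a common depth. After each cell was thinned to 1000 UMIs, 29.9% (29.0 to 30.8) of the hepatocyte-like cells of WT and 9.22% (8.36 to 10.1) of those of N-LKO held a Glul UMI (39.3% and 15.04% before thinning, at medians of 1519 and 1784 UMIs). T-like cells, which are not known for Glul, gave 23.4% in WT and 8.59% in N-LKO at medians of 1190 and 1345 UMIs before thinning. For N-LKO the hepatocyte-like share was thus not above the T-like share beyond counting error, while for WT it was. The T-like share is more than free RNA, which would give 242 CPM of Glul in WT and 55.2 CPM in N-LKO T-like cells. They held 275 and 96.6 CPM. In summed CPM, Glul of N-LKO was higher in hepatocyte-like than in T-like cells, at a log2 ratio of 0.71 (0.53 to 0.91). Cyp2e1 was found in 44.7% (WT) and 25.8% (N-LKO) of hepatocyte-like cells, where T-like cells gave 28.7% and 16.3%. Cyp1a2 was found in 8.76% and 3.89%, where T-like cells gave 2.12% and 1.56%. Oat was found in 23.5% of WT hepatocyte-like and 22.1% of WT T-like cells, whose intervals overlapped, and in 5.31% and 4.27% in N-LKO. The shares in endothelial-like cells were 28.1% in WT and 17.9% in N-LKO for Glul, the latter above the N-LKO hepatocyte-like share.

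The transcripts of Slc1a2 were gathered in few N-LKO cells. In WT, 86 hepatocyte-like cells held 3 or more Slc1a2 UMIs and together 23.5% of the UMIs of that gene. In N-LKO, 79 cells did so and held 68.1%, and a single cell held 27. Of these 79 cells, 66 were in cluster 6, where they made up 3.19% (2.48 to 4.04) of the cells, against 0.66% (0.35 to 1.12) of cluster 5. WT showed the same contrast, with 5.56% (3.33 to 8.64) of the Malat1-rich cluster 17 against 0.81% (0.63 to 1.03) of cluster 0. The cells chosen in this way also held more Glul. It stood at 4423 CPM in the WT cells with 3 or more Slc1a2 UMIs against 493 CPM in the rest, and at 1640.3 CPM against 126 CPM in N-LKO. Their summed hepatocyte markers were lower than in the rest, at 16274 against 32185 CPM in N-LKO and 34755 against 45549 CPM in WT. Glul and Cyp2e1 did not show such a contrast between libraries: cells with 3 or more Glul UMIs held 57.5% of Glul in WT and 56.3% in N-LKO, and the same share for Cyp2e1 was 60.5% and 59.9%.

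**Figure D3:**
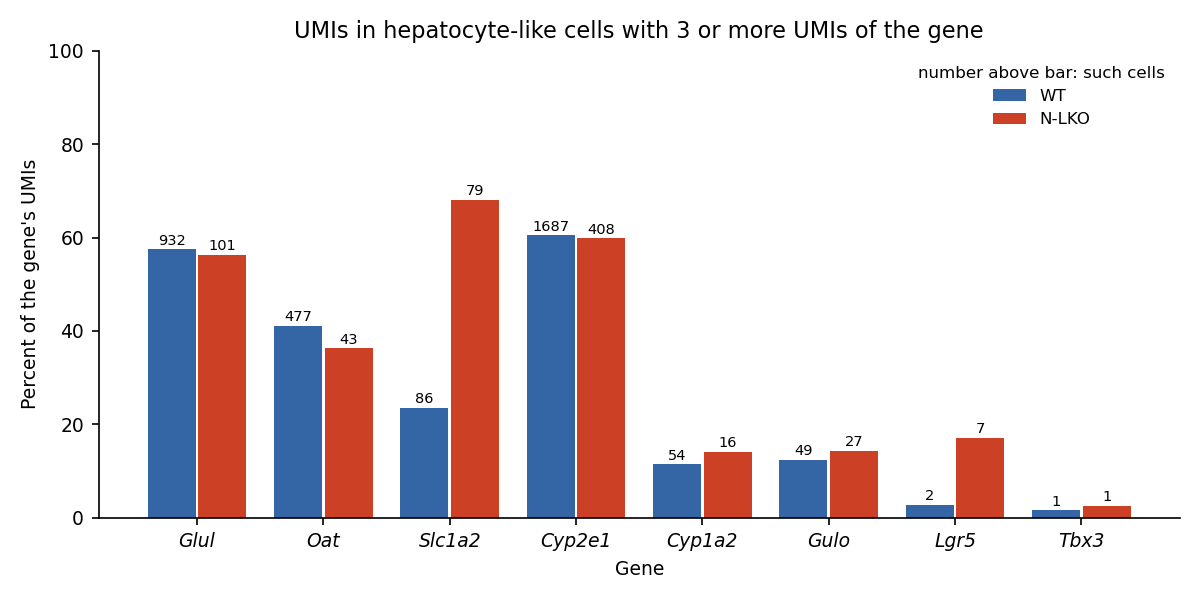
Percent of the UMIs of each gene found in hepatocyte-like cells with 3 or more UMIs of that gene, in WT (blue) and N-LKO (red), without thinning; the number above each bar counts those cells. Slc1a2 differed most, at 23.5% in WT and 68.1% in N-LKO, and Lgr5 rested on 2 and 7 such cells.

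Hepatocyte-like cells with at least 2 Glul UMIs after thinning, called Glul-high, made up 10.7% (10.1 to 11.3; 1063 cells) in WT and 2.34% (1.90 to 2.85; 97 cells) in N-LKO. By the same rule T-like cells gave 2.88% in WT and 0.625% in N-LKO, and endothelial-like cells gave 5.11% and 2.34%. At 5 or more UMIs there were 151 hepatocyte-like cells in WT and 22 in N-LKO, against 1 T-like cell in each library and 2 WT and 1 N-LKO endothelial-like cells. The highest count in a thinned cell was 25 in WT and 16 in N-LKO. The share of Glul-high cells was 11.9% in cluster 0 of WT, 2.63% in cluster 5 of N-LKO and 1.89% in cluster 6 of N-LKO.

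The other pericentral genes moved with Glul among cells in both libraries. Of the 9 others, 8 were higher in Glul-high than in Glul-zero cells with an interval above 0 in each library, and Axin2 had an interval that included 0 in both. The share of all genes with such an interval is not given here. Among genes with at least 50 UMIs, 26 of 29 other pericentral and 0 of 29 periportal genes had one in WT. In N-LKO 22 of 26 and 1 of 30 did. Rhbg and Tbx3 rested on 3 and 8 UMIs in the Glul-high cells of N-LKO. Slc1a2 stood at 392 CPM in Glul-high and 57.4 CPM in Glul-zero cells of WT and at 1107 and 39.9 CPM in those of N-LKO. Oat stood at 1275 and 213 CPM in WT and at 838 and 49.5 CPM in N-LKO. Cyp2e1 stood at 2095 and 602 CPM in WT and at 1842 and 369 CPM in N-LKO. In Glul-high cells the level of Slc1a2 was thus higher in N-LKO than in WT, and that of Oat lower, on 107 and 81 UMIs in N-LKO. The rule need not pick like cells in both libraries. Free RNA would give 375 CPM of Glul in WT and 45.9 CPM in N-LKO hepatocyte-like cells, and its part in these levels was not tested. Lgr5 rested on 36 UMIs in the Glul-high cells of WT and 9 in those of N-LKO.

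The median log2 ratio of Glul-high over Glul-zero cells over the 7 of these genes with at least 50 UMIs was 1.96 in WT and 2.96 in N-LKO. Over the list of other pericentral genes it was 0.92 in WT (29 genes) and 1.53 in N-LKO (26 genes), and over the periportal list it was -0.28 (29 genes) and -0.97 (30 genes). The contrast between Glul-high and Glul-zero cells was wider in N-LKO in all 3 lists, beside a lower share of free RNA there, whose part was not tested. Among 8780 genes ranked in WT, those with patterns most like Glul by this ratio were Rdh9 (3.09), Slc1a2 (2.77), Oat (2.58), Cyp2a5 (2.46) and the antisense gene Tbx3os1 (2.30). Among 7629 genes ranked in N-LKO they were Slc1a2 (4.80), Oat (4.09), Lhpp (3.99), Gm36419 (3.20) and Lgr5 (3.02). Slc1a2 and Oat were in both lists. Rdh9 is a retinol dehydrogenase and Cyp2a5 a cytochrome P450.

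**Figure D4:**
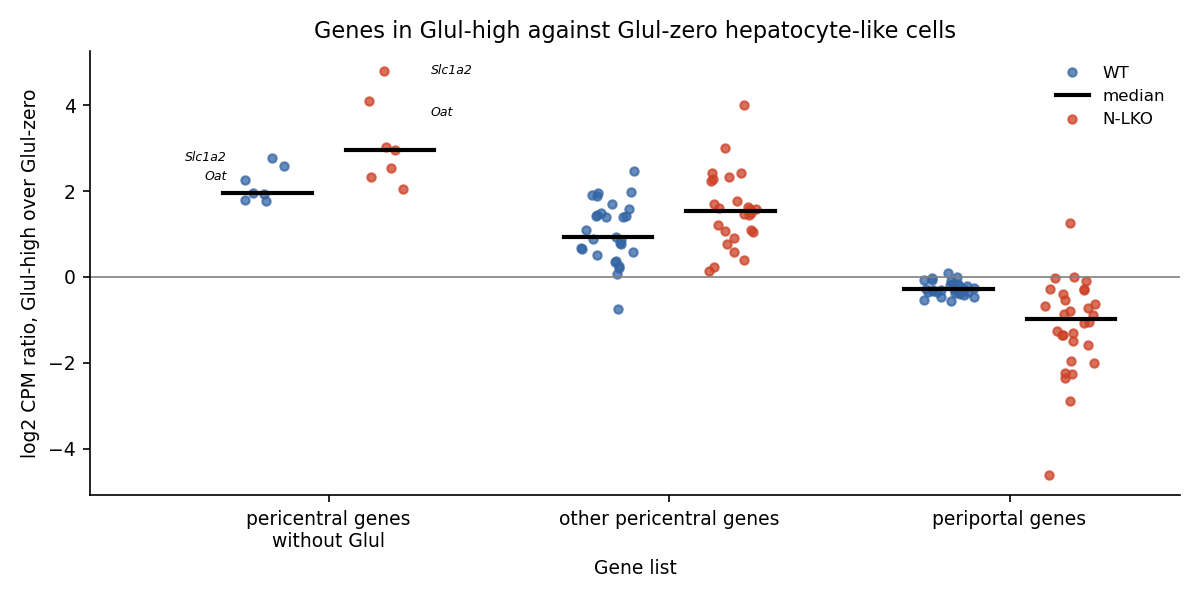
Log2 ratio of CPM in Glul-high (2 or more Glul UMIs after thinning to 1000) over Glul-zero hepatocyte-like cells, 1 point per gene with at least 50 UMIs, for WT (blue) and N-LKO (red); black lines are medians. The medians were 1.96 and 2.96 for the pericentral genes without Glul and -0.28 and -0.97 for the periportal genes.

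Detection of pairs of genes in the same cell was counted as well. Glul and Slc1a2 were found together in 476 WT hepatocyte-like cells, 1.90 times (1.73 to 2.08) the number that the product of their shares gives, and in 77 N-LKO cells, 4.85 times (3.83 to 6.07). For Glul and Oat the ratio was 1.63 (1.54 to 1.73) in WT and 2.56 (1.91 to 3.36) in N-LKO. Glul and Lgr5 were together in 68 WT cells (1.75 times) and 17 N-LKO cells (3.23 times). The periportal genes Gls2 and Hal were found with Glul less often than that product, at 0.90 and 0.93 times in WT and 0.54 and 0.64 times in N-LKO, with intervals below 1. Of the other 2 periportal genes paired with Glul, Cyp2f2 was at 0.95 (0.90 to 1.00) in WT and 0.75 (0.56 to 0.97) in N-LKO, and Sds at 0.97 (0.87 to 1.08) and 0.74 (0.49 to 1.08), so Sds included 1 in both libraries and Cyp2f2 in WT. These are descriptions of sparse counts in thinned cells of 1 library each.

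Outside the hepatocyte-like cells, some of the genes were within the level of free RNA and others above it. Cyp1a2 and Gulo were within or below the level expected from free RNA in all 7 other classes of both libraries. Cyp2e1 was within or below it, save in the hepatic stellate-like cells of both libraries and the endothelial-like cells of N-LKO. Glul was above it in 5 of 7 other classes in WT and all 7 in N-LKO. Among WT classes Glul was highest in hepatocyte-like cells (533 CPM), followed by endothelial-like (337 CPM), macrophage-like (319 CPM) and B-like cells (309 CPM), whose intervals overlapped. T-like (275 CPM), cholangiocyte-like (242 CPM), hepatic stellate-like (234 CPM) and dendritic-like cells (177 CPM) came next, each overlapping its neighbor in that order.

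In N-LKO the order of Glul was another. Endothelial-like cells were highest at 208 CPM (193 to 223), followed by macrophage-like (179 CPM, 168 to 190.1), hepatic stellate-like (166 CPM) and hepatocyte-like cells (159 CPM, 150.4 to 167), and the last 3 overlapped as neighbors. B-like (112 CPM), cholangiocyte-like (99.2 CPM), T-like (96.6 CPM) and dendritic-like cells (69.6 CPM) came below them. The log2 ratio of hepatocyte-like over endothelial-like cells was 0.66 (0.56 to 0.77) in WT and -0.39 (-0.52 to -0.25) in N-LKO. With T-like cells as the reference it was 0.95 in WT and 0.71 in N-LKO, with overlapping intervals. Against T-like cells Slc1a2 was at 2.09 (1.63 to 2.63) in WT and 1.03 (0.74 to 1.33) in N-LKO. These intervals take each UMI as independent, yet 9 T-like cells of N-LKO held 64 of its 113 Slc1a2 UMIs. The remaining T-like cells of N-LKO stood at 16.9 CPM, against 23.1 CPM in WT. Axin2 was at -0.29 and -0.53 and Tbx3 of WT at -0.14, with intervals that included 0, while Tbx3 of N-LKO was at 1.64. Against the same cells the ratio was 1.29 and 1.18 for Cyp2e1, 2.30 and 1.85 for Cyp1a2, 1.93 and 1.96 for Gulo and 0.48 and 0.75 for Oat in WT and N-LKO. Oat and Cyp2e1 were lower in the T-like cells of N-LKO too, at 244 and 42.7 CPM for Oat and 319.7 and 186.0 CPM for Cyp2e1.

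**Figure D5:**
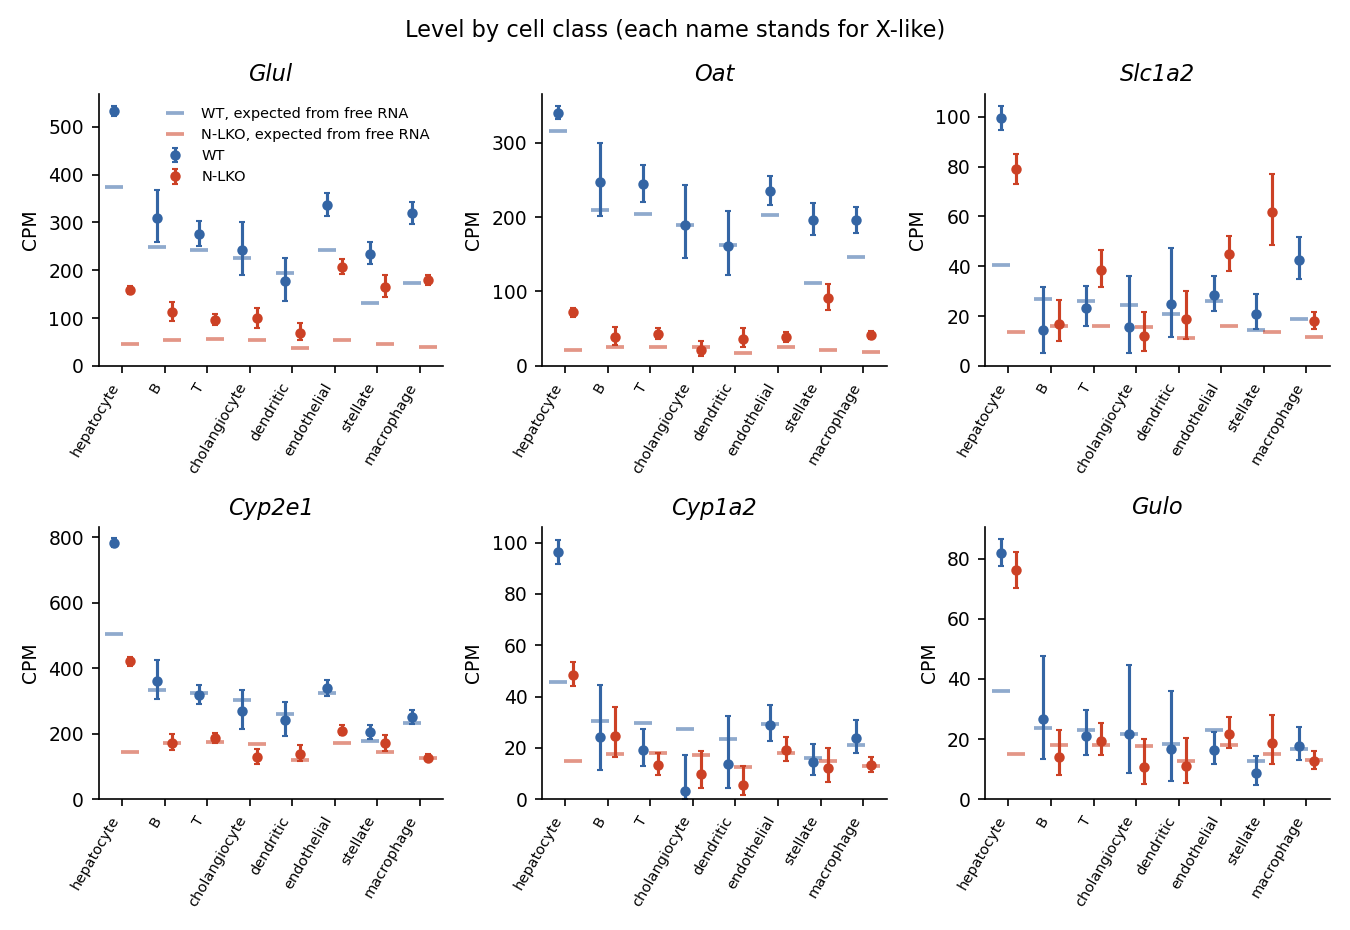
CPM of 6 of the genes by cell class in WT (blue) and N-LKO (red), with 95% Poisson intervals; short lines are the level expected from free RNA. Cyp1a2 and Gulo rose above that level only in hepatocyte-like cells, and Glul of N-LKO was highest in endothelial-like cells at 208 CPM.

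Intervals below 0 among the 10 genes were 4 in B-like and T-like cells alike (10.7% and 18% of all genes), 4 in endothelial-like (20.7%), 5 in macrophage-like (22.5%), 3 in hepatic stellate-like (18.8%), 3 in cholangiocyte-like (7.8%) and 3 in dendritic-like cells (7.49%). Intervals above 0 were 1 in T-like (23.4%), 2 in endothelial-like (27%) and 3 in hepatic stellate-like cells (15.3%), and none in B-like (10.6%), macrophage-like (15.5%), cholangiocyte-like (6.76%) and dendritic-like cells (7.07%). Oat was lower with an interval below 0 in T-like (-2.51), endothelial-like (-2.59) and hepatic stellate-like cells (-1.11), and Glul in the same classes (-1.51, -0.70 and -0.50). With free RNA subtracted, Glul turned to 0.18, 0.55 and 0.45 in these 3 classes, and Oat was at -1.37, -1.37 and -0.075. Lgr5 was higher in endothelial-like (1.16, on 14 and 47 UMIs) and hepatic stellate-like cells (1.99, on 6 and 18 UMIs). The 18 N-LKO UMIs of the hepatic stellate-like cells lay in 9 of 708 cells, and 3 cells held 61.1% of them. The interval takes each UMI as independent.

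Slc1a2 was lower in the macrophage-like cells of N-LKO, at 42.6 and 17.98 CPM, a log2 ratio of -1.24 (-1.65 to -0.84), and higher in N-LKO in 3 other classes. In those it stood at 23.1 and 38.6 CPM in T-like, 28.5 and 44.7 CPM in endothelial-like and 20.9 and 61.7 CPM in hepatic stellate-like cells of WT and N-LKO, with free RNA expected to give at most 26.1 CPM in any of them. Few cells held 44.9% to 77.6% of these N-LKO UMIs: 9 T-like cells held 64 of 113 UMIs, 14 endothelial-like cells held 70 of 156 and 7 hepatic stellate-like cells held 59 of 76. The remaining N-LKO cells stood at 16.9, 24.9 and 14.0 CPM. The few cells held Glul at 1427, 959.6 and 1165 CPM, against 86.0, 201 and 148 CPM in the remaining cells of each class. They held less of the markers of their own class, at 476 against 820 CPM for the T markers, 2488 against 5210 for the endothelial and 1072 against 5372 for the hepatic stellate markers. Their summed hepatocyte markers stood at 10159.5 against 11227 CPM in T-like and 10484 against 11463 CPM in endothelial-like cells. In hepatic stellate-like cells these were 9365 against 8878 CPM. Their Malat1 stood between 18836 and 21946 CPM. These cells were chosen by their Slc1a2 counts, so the values describe them and test nothing.

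Lists of related genes, fixed for this work with earlier results of these data known, give the setting. Of 30 other pericentral genes, 16 were lower and 12 higher with intervals apart from 0, with a median of -0.17. Car3, a carbonic anhydrase, was lower at 2444 CPM for WT against 598 CPM for N-LKO, while the glutathione transferases Gstm1 (922 and 765 CPM) and Mgst1 (2554 and 2226 CPM) had log2 ratios of -0.27 and -0.20. Of 30 periportal genes, 23 were lower and 5 higher, with a median of -0.52. Cps1, the entry enzyme of the urea cycle, stood at 2983 CPM for WT against 2115 CPM for N-LKO, and Pck1, an enzyme of glucose synthesis, at 1037 and 763 CPM. Both zones thus held more lower than higher genes, beside the 18.1% lower and 55.5% higher among all genes. Of 17 hepatocyte identity genes without zonation, 8 were lower and 8 higher, with a median of -0.035. Among them Alb stood at 21809.7 and 10659.7 CPM, Apoa2 at 12655 and 9242 CPM and Ttr at 6036 and 4892 CPM.

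Of 20 genes for ammonia, glutamate and glutamine, 16 had at least 5 CPM, 13 were lower and none higher with an interval apart from 0 (18.1% and 55.5% of all genes), and the median was -0.50. Gls2, Cps1, Otc and Slc7a2, all among the lower genes, are also in the periportal list, so both counts hold them. Glud1, which releases ammonia from glutamate, stood at 800.4 CPM for WT against 687 CPM for N-LKO, and Slc7a2, a transporter of arginine and ornithine, at 946 and 670 CPM. Of the 8 vitamin C genes, 7 were in the tables and 5 were lower and 1 higher (18.1% and 55.5% of all genes), with Ugp2 at 524 and 411 CPM, Rgn at 535 and 378 CPM and the glucose transporter Slc2a2 at 317 and 232 CPM. The Ahr list held 10 of 14 genes with at least 5 CPM, of which 7 were higher and 1 lower, a share of higher genes near the 55.5% of all genes. Its most abundant genes were Cyb5a (921 and 910.4 CPM), Hsp90ab1 (603 and 659 CPM) and Ptges3 (208 and 143 CPM). Rgn of the vitamin C list, and Ahr and Por of the Ahr list, are also in the list of other pericentral genes.

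The Wnt receptor, transducer and target list held 20 of 28 genes with at least 5 CPM. Of these, 15 were higher and 3 lower in N-LKO, with a median of 0.90 (all genes: 55.5% higher, 18.1% lower, a median of 0.39), but without the Malat1-rich and Malat1-poor clusters the median was -0.072. Gsk3b, a kinase that marks beta-catenin for destruction, stood at 135 CPM for WT against 247 CPM for N-LKO, the kinase Csnk1a1 at 169 and 191 CPM and the transcription factor Tcf7l2 at 147 and 209 CPM.

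The ligands that act on these hepatocytes were measured in endothelial-like cells, where 7 of 9 listed genes had at least 5 CPM. Of these, 5 were lower and 1 higher with an interval apart from 0, against 20.7% and 27% of all genes in that class. The summed endothelial markers of the same cells stood at 7228 CPM for WT against 5188 CPM for N-LKO, and their part in these results was not tested. Rspo3, the R-spondin of the central vein, stood at 204 CPM for WT against 94.6 CPM for N-LKO, with a log2 ratio at -1.11 (-1.31 to -0.90). Wnt2 stood at 123 and 54.5 CPM, a ratio of -1.17 (-1.45 to -0.91). Wnt9b was counted in 15 and 22 UMIs, at 6.30 and 6.31 CPM. Wls, which escorts Wnt proteins to the surface, stood at 123 and 90.0 CPM. The endothelial genes Kit and Cdh13 were lower, at 125 and 71.7 CPM and at 301 and 135 CPM. Thbd, thrombomodulin, was higher, at 36.9 and 98.6 CPM. Dkk2 was counted in 1 and 15 UMIs, and Rspo1 in 0 and 1. In sums over a class, fewer cells that carry a ligand and less RNA per cell cannot be told apart.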

How the data were processed

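Reads were aligned by the authors in Cell Ranger (7.1.0 per the file headers). The deposited tables hold raw counts of UMIs for every gene in every barcode, as whole numbers. The submitters' processing notes name mm9, Cell Ranger and Seurat. The files hold no coordinates, so gene positions come from GENCODE and RefSeq tables on GRCm38. Whether intron reads were counted is not given in the sources used here.

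Barcodes with at least 1000 UMIs, 400 genes and at most 30% mitochondrial UMIs were kept, and doublets were removed with Scrublet in scanpy 1.11.5 at a score of 0.25 (8.55% in WT and 10.6% in N-LKO). Cells were clustered with leidenalg 0.10.2 at resolution 0.3 on 30 components of 2000 variable genes, without the 10 genes described. Clusters were named from 14 marker lists, in the library that gave more cells. A name needed a score of 0.15 and 3 markers raised by 1.25 times, and these thresholds were set after seeing the data. The names are rebuilt, so a difference from the study may come from them. Clusters called mixed held 1058 WT and 2511 N-LKO cells, and unnamed clusters 754 and 1750.

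UMIs were summed per class and library and scaled to CPM. Before each log2 ratio (N-LKO divided by WT), 0.5 UMI was added to both sums. Levels carry exact Poisson, ratios conditional binomial and shares Clopper-Pearson intervals (scipy 1.17.1), and the ratio step was tested on simulated data. Clusters over 15000 CPM of Malat1 were called rich and those under 3000 CPM poor. The text names the 10 genes, the 3 most abundant genes of each list, all ligand genes, and the 5 genes most like Glul per library. A gene that this rule names is not reported here. The genes and lists were chosen with earlier results of these data known.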

Additional observations from a re-analysis of the deposited data

Results flagged for a closer look

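Slc1a2 differed in direction between cell classes. Its log2 ratio of N-LKO over WT was -0.33 in hepatocyte-like cells, but 0.73 in T-like cells, 0.64 in endothelial-like cells and 1.55 in hepatic stellate-like cells. In macrophage-like cells it was -1.24 (-1.65 to -0.84), so the direction also differed among the classes other than hepatocyte-like cells. Of the N-LKO Slc1a2 UMIs, 9 T-like cells held 64 of 113, 14 endothelial-like cells 70 of 156 and 7 hepatic stellate-like cells 59 of 76. The remaining N-LKO cells of these classes stood at 16.9, 24.9 and 14.0 CPM. WT cells with under 3 Slc1a2 UMIs stood at 23.1, 25.2 and 20.9 CPM, so the higher values rested on few cells. With 1 library per group, the difference between classes was not tested.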

How the results depend on the processing

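No paired analysis was possible because each group had 1 library, which also left no replicate to leave out. Over 13 alternatives the log2 ratios of Glul, Cyp2e1, Cyp1a2 and Oat in hepatocyte-like cells stayed below 0, nearest at -0.75, -0.39, -0.36 and -0.16. Slc1a2 was at 0.19 with a minimum of 2000 UMIs and 0.33 with a mitochondrial limit of 10%. Lgr5 was at -0.045 with free RNA subtracted, -0.95 without Malat1-rich and Malat1-poor clusters, -0.64 in the Malat1-rich clusters alone (an alternative added after seeing the data) and -0.64 with cells called 1 by 1 from markers. With free RNA subtracted, Glul was at 0.18 in T-like, 1.32 in cholangiocyte-like, 0.55 in endothelial-like and 0.45 in hepatic stellate-like cells, Cyp2e1 at 1.18 in endothelial-like and 0.24 in hepatic stellate-like cells, and the medians over the 10 genes at 0.87 in endothelial-like and -1.57 in macrophage-like cells; the Wnt list median was 0.25 and the ammonia list median -0.95. With the 10% limit, Glul in endothelial-like cells was at 0.047, and the medians were -0.51 (other pericentral), -1.14 (periportal), -0.89 (ammonia) and -0.056 (Ahr). Without a mitochondrial limit the median over the 10 genes in endothelial-like cells was -0.77. Relative to the median of all genes, the list medians were -0.56 (other pericentral), -0.91 (periportal), -0.89 (ammonia) and -0.43 (hepatocyte identity). Without Malat1-rich and Malat1-poor clusters the Wnt median was -0.072. The Glul-high share of WT was 8.96% with a minimum of 2000 UMIs, 3.84% with the 10% limit and 11.8% without Malat1-rich and Malat1-poor clusters; in the Malat1-rich clusters alone it was 4.63% in WT and 1.88% in N-LKO. At 1 or more Glul UMIs the shares were 29.9% and 9.22%, and at 3 or more 4.78% and 1.21%; cells with a Glul UMI made up 39.3% and 15.04% without thinning. The causes of these moves were not tested. Depth limits Axin2 and Rhbg, each under 60 UMIs per library.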
